A study of Mus musculus with 6 samples.

Results

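The 39 Hox genes of the mouse were examined in poly(A) RNA-seq of the distal mandible, the most forward tissue of the future lower jaw in the embryo. They were every gene whose symbol is Hox followed by a cluster letter, a to d, and a number, 39 of the 21827 genes listed for each library. None of the 39 reached 1 TPM in any of the 6 libraries, and 24 were listed at 0 in every one. TPM is transcript abundance per transcript length, scaled to a fixed total per library, so levels of different genes can be set side by side. The highest level of any Hox gene in any library was 0.816 TPM.

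Hox genes encode homeodomain transcription factors that give cells their position along the head-to-tail axis. They lie in 4 clusters, and genes of the same number in different clusters, called a paralogue group, descend from a common ancestor and share much of their domain. Low group numbers are expressed from the hindbrain backwards, and high numbers in the trunk, limbs and tail. Neural crest cells that fill the first pharyngeal arch, which forms the jaws, are known to lack Hox expression, whereas crest of the second arch expresses Hoxa2 and crest of more posterior arches also group 3 genes. Loss of Hoxa2 gives the second arch skeletal elements of the first, so the Hox-free state is part of what makes jaw tissue.

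Each library came from a single embryo at E10.75, and each of 3 litters gave 1 embryo per label. Embryos labelled mutant were Msx1f/f;Msx2f/f;Rosa26mTmG/+;Hand2-Cre, and those labelled control were Msx1f/+;Msx2f/f;Rosa26mTmG/+;Hand2-Cre. Every embryo thus carried Hand2-Cre, a recombinase active in the Hand2 domain of the distal arch, the mTmG reporter, which turns recombined cells green, and 2 floxed copies of Msx2. No embryo had intact Msx genes. Mandible tips were dissected by their green fluorescence, with no cell sorting named, so tissue next to the Hand2 domain can be included. Msx1, the gene whose floxed dose separates the labels, was at 1.90, 78.8 and 73.3 TPM in the libraries labelled mutant from litters 1, 2 and 3, and at 84.1, 2.61 and 1.99 TPM in those labelled control. It goes against the labels in litters 2 and 3, so every direction below refers to the labels as deposited. Per library, 11929 to 12132 genes were at 1 TPM or more, and sequencing depth is not given with the TPM.

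The sequences just upstream of 3 Hox genes are shown because the results turn on genes that are silent or nearly so. Hoxa2 had the highest mean level, and Hoxb4 was above 0 in every library. Hoxd13 has the most CG pairs among promoters of genes at 0 in all libraries, leaving out windows that overlap an annotated UTR. Each is the 250 bases before the gene's start in RefSeq (GRCm38.p6), 5′ to 3′ on the gene's strand, with CG pairs, the bases that DNA methylation targets, in capitals.
Hoxa2, minus strand of chr6:52164832-52165081: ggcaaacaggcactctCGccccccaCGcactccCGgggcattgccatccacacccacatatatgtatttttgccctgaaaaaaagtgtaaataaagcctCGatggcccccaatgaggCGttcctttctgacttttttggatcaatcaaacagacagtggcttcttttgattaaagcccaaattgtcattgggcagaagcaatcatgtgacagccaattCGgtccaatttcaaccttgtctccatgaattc
Hoxb4, plus strand of chr11:96318017-96318266: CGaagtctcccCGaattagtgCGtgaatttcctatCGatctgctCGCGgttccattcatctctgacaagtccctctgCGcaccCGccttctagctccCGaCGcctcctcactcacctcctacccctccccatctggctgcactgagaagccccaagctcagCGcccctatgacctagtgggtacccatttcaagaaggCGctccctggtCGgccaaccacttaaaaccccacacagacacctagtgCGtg
Hoxd13, plus strand of chr2:74667975-74668224: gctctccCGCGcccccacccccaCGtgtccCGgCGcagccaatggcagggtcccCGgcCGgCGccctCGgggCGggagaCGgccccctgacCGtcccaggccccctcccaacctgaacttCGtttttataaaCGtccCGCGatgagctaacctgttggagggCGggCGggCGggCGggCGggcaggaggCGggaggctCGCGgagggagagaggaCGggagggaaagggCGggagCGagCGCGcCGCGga
The 250 bases held 6 CG pairs in Hoxa2, 14 in Hoxb4 and 31 in Hoxd13. RefSeq windows of 300 bases, 250 before to 50 after the start, were matched for 22 of the 39 genes. Their median CG count was 13.5, against 7 over 27025 genes with a window, taking the first window of each gene. The median was 12 in the 8 matched genes above 0 in any library and 14 in the 14 at 0 in all. Searched on both strands, TATAAA was in 3 of 22 Hox windows (13.6%) and 14.2% of all, and the Pbx-Hox type motif TGATNNAT in 3 of 22 (13.6%) and 9.04% of all. The Hoxa2 window holds 1 TGATNNAT match. Such matches describe the letters only.

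Most Hox genes left no trace in these jaws. Of the 39, 61.5% were listed at 0 in all 6 libraries, against 19.3% of all listed genes, and 59.8% of all genes reached 1 TPM in at least 1 library. Of the 15 Hox genes above 0 anywhere, 4 were above 0 in all 6 libraries, Hoxa2, Hoxb3 and Hoxb4 among them, Hoxb2 was above 0 in 5, 7 in 2 to 4, and 3 in 1. Only 4 of 234 values, in Hoxa2, Hoxb2 and Hoxd8, reached 0.5 TPM. In tissue as a whole, fewer cells with a transcript and less transcript per cell cannot be told apart, so these levels do not say whether a few cells or many carried the RNA.

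**Figure D1:**
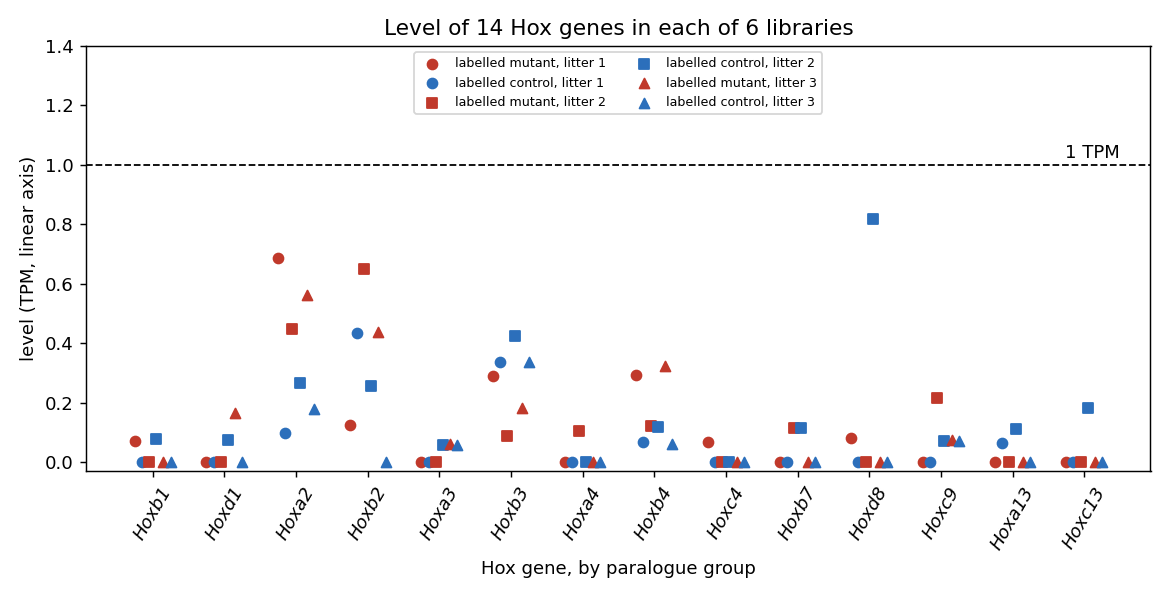
Level in TPM (linear axis) of 14 Hox genes above 0 in at least 1 library, by paralogue group, with 1 point per library, colour for the label and shape for the litter. Every point lies under the dashed line at 1 TPM, and the highest is Hoxd8 at 0.816 TPM in the library labelled control from litter 2.

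These levels rest on few sequenced fragments. The authors' deposited table gives for each gene a base mean, which in DESeq2 output is the mean over libraries of counts divided by a size factor. Multiplied by 6, the base means of the authors' deposited table amount to 132 scaled counts for all 39 Hox genes in all libraries. Hoxb3 had 32.0 and Hoxa2 25.0 scaled counts over the 6 libraries, Hoxb4 16.2 and Hoxb2 14.2. Hoxa4 and Hoxc4, each above 0 in 1 library, had 0.996 and 0.989, about 1 fragment. The 24 genes at 0 TPM were also the 24 with a base mean of 0 in the authors' deposited table. Over the 15 detected genes, 1 TPM stood for 6.44 to 19.3 scaled counts in an average library. A count of 0 in a library, which allows up to 3 counts, thus allows up to 0.155 to 0.466 TPM for genes like these. Such limits cover counting error only and assume that scaled counts and TPM are in proportion within a gene.

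The faint signal lay mainly in the low-numbered genes. Of the 12 genes of groups 1 to 4, 10 were above 0 in at least 1 library, and 81.4% of all Hox TPM, summed over libraries, fell on them. In groups 5 to 8, 2 of 11 were above 0, and in groups 9 to 13, 3 of 16. No gene of groups 5, 6, 10, 11 or 12 was above 0 in any library. By cluster, 5 of 11 Hoxa genes, 5 of 10 Hoxb, 3 of 9 Hoxc and 2 of 9 Hoxd genes were above 0, and Hoxb held 47.8% and Hoxa 34.5% of the summed Hox TPM.

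**Figure D2:**
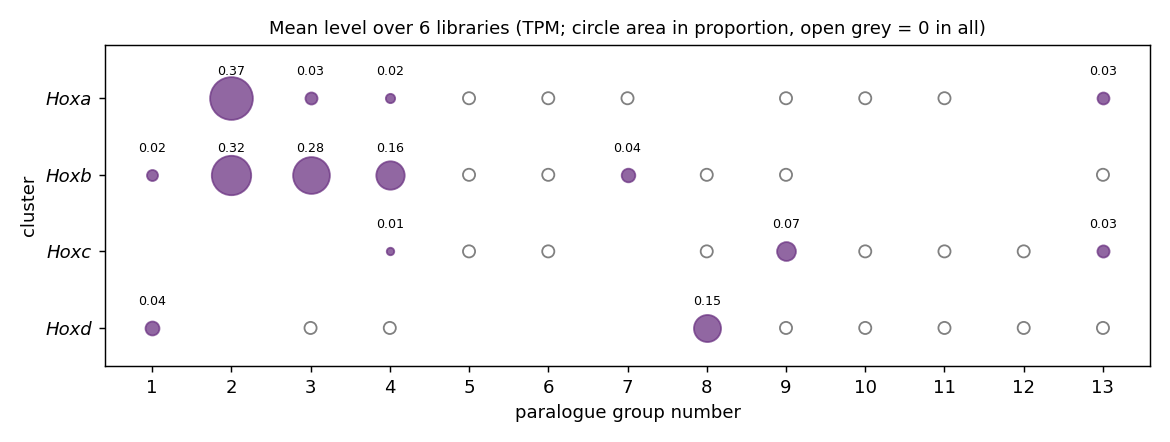
Mean TPM over the 6 libraries of 38 Hox genes, placed by paralogue group (horizontal axis) and cluster (vertical axis); circle area is in proportion to the mean, which is printed above, and open grey circles are genes at 0 in all libraries. The large circles are Hoxa2, Hoxb2 and Hoxb3, and most positions above group 4 are open.

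Group 2 marks the second arch and the hindbrain, and it had the highest sum of any group over all libraries, 40.2% of all Hox TPM. In scaled counts it held 29.8%, against 26.6% for group 3. Another group was higher in the libraries labelled control from litters 2 and 3. These were group 8, at 0.816 against 0.523 TPM, and group 3, at 0.396 against 0.180 TPM. Hoxa2, the selector gene of second arch identity (ENSMUSG00000014704, chromosome 6, 52162417 to 52164831, GRCm38), was at 0.686, 0.447 and 0.563 TPM in the libraries labelled mutant from litters 1, 2 and 3. In those labelled control it was at 0.0988, 0.268 and 0.180 TPM. The labels did not overlap, and the library labelled mutant was the higher in each litter. Hoxb2, which patterns rhombomere 4 and its facial motor neurons together with Hoxb1 (chromosome 11, 96350525 to 96354012), was at 0.125, 0.651 and 0.440 TPM in the mutant label and at 0.434, 0.256 and 0 TPM in the control label. Its labels overlapped. The sum of both genes ran from 0.180 TPM in the library labelled control from litter 3 to 1.10 TPM in that labelled mutant from litter 2. Group 2 was the only group whose sum reached 1 TPM in a library.

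Group 3 is expressed in the third arch, its crest and the more caudal hindbrain. Hoxb3 (chromosome 11, 96323326 to 96347930) was at 0.291, 0.0866 and 0.183 TPM in the libraries labelled mutant and at 0.336, 0.425 and 0.338 TPM in those labelled control. Here the control label was the higher in each litter and the labels did not overlap. Hoxa3, which is needed for thymus and parathyroid formation, did not exceed 0.0618 TPM, and Hoxd3 was at 0. The gene model of Hoxa3 overlaps Hoxa4, Hoxa5 and Hoxa6 on the same strand, so reads in the shared part could be divided between them.

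Groups 1 and 4 were fainter. Of group 1, Hoxb1, a gene of rhombomere 4 identity, and Hoxd1 were above 0 in 2 libraries each, at up to 0.0763 and 0.164 TPM. Hoxb4, of the caudal hindbrain and neck (chromosome 11, 96318267 to 96321638), was at 0.295, 0.123 and 0.323 TPM in the mutant label and at 0.0680, 0.117 and 0.0618 TPM in the control label. Its labels did not overlap, but in litter 2 the littermates were all but equal. Hoxa4 and Hoxc4 appeared in 1 library each, at 0.106 and 0.0687 TPM, and Hoxd4 in none.

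Genes of the trunk, limb and tail were above 0 in at most 4 of the 6 libraries. Hoxd8 (chromosome 2, 74704615 to 74707933) was at 0.816 TPM in the library labelled control from litter 2, at 0.0819 TPM in that labelled mutant from litter 1, and at 0 in the other 4. Its base mean in the authors' deposited table amounts to 5.79 scaled counts over all libraries. Hoxc9 was above 0 in 4 libraries, at up to 0.216 TPM in that labelled mutant from litter 2. Hoxb7 was at 0.114 TPM in both libraries of litter 2 and at 0 elsewhere. The group 13 genes, which pattern digits, genitalia and tail, gave Hoxa13 at 0.0632 and 0.112 TPM in the libraries labelled control from litters 1 and 2, and Hoxc13 at 0.181 TPM in that labelled control from litter 2. Hoxb13 and Hoxd13 were at 0 throughout.

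The summed level of all Hox genes was low in every library. It was 1.79, 1.80 and 1.92 TPM in the libraries labelled mutant from litters 1, 2 and 3, and 1.06, 2.86 and 0.871 TPM in those labelled control. The means were 1.84 ± 0.07 and 1.60 ± 1.09 TPM (SD, n = 3), and the mutant values lay within the control range. The library labelled control from litter 2 was the highest and also had the most members above 0, 13 against 6 to 8 in each of the others. Without that library 25 genes were at 0 in all the rest, against 24 in all 6. For scale, Hand2 alone, a distal arch gene, was at 210.0 to 261 TPM, and the whole Hox family came to at most 1.36% of it in any library.

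**Figure D3:**
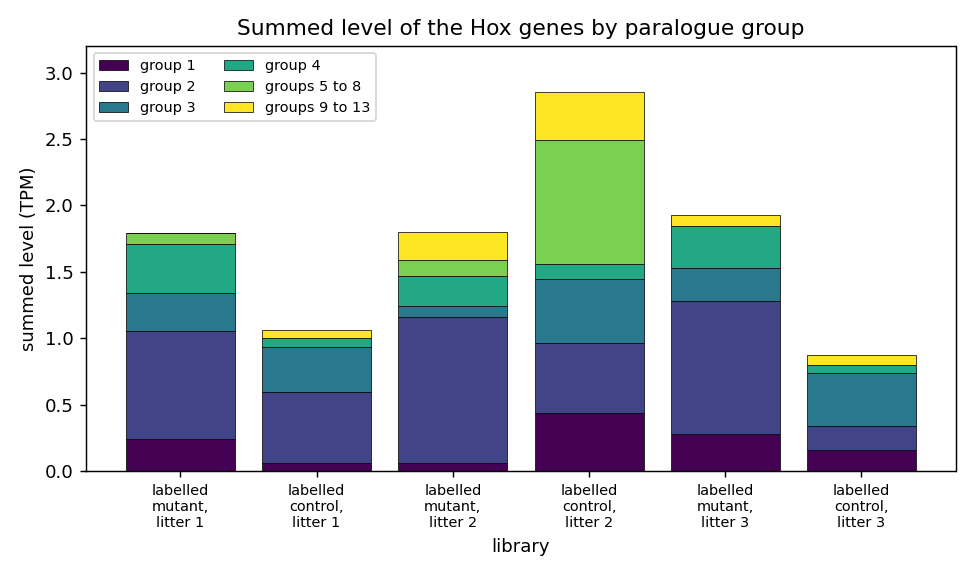
Summed TPM of the Hox genes in each of the 6 libraries (bars from 0), split by paralogue group. Group 2 fills much of the bar in the libraries labelled mutant, and the tallest bar, 2.86 TPM in the library labelled control from litter 2, owes 0.816 TPM to Hoxd8.

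No Hox gene could be tested for a difference between the labels at the level set for the whole table. Limma was fitted on log2(TPM + 1), keeping genes that reached 1 TPM in 3 or more libraries, and called 0 of 12152 genes higher (0%) and 0 lower (0%) at an adjusted p of 0.05. Without adjustment, 817 genes (6.72%) had a limma p under 0.05. None of the 39 Hox genes passed the filter. Without it, the 15 detected Hox genes were among 17605 genes fitted, and 0 of the 15 and 0 of the 17605 (0%) passed limma's adjusted threshold. In that unfiltered limma fit Hoxa2 had a log2 difference, mutant minus control, of 0.40 ± 0.10 (SE; adjusted p = 0.814), with an unadjusted limma value of 0.00604 in the fit across all genes. Hoxb4 was at 0.20 ± 0.08 and Hoxb3 at -0.21 ± 0.09 (SE; limma adjusted p = 0.814 for both), with unadjusted limma values of 0.0481 and 0.0608. So 2 of 15 had an unadjusted p under 0.05, where 5.87% of all genes fitted did. With litter as a block, the unadjusted limma value was 0.0226 for Hoxa2 and 0.0886 for Hoxb4, and no gene passed the adjusted threshold.

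In TPM, genes found in at least 5 libraries were also compared by exact two-sided permutation over the 6 libraries, where 3 against 3 cannot give a p below 0.1. Hoxa2 averaged 0.565 ± 0.119 TPM under the mutant label and 0.182 ± 0.084 TPM under the control label (SD, n = 3), 3.11-fold (exact permutation p = 0.1). Hoxb4 averaged 0.247 ± 0.108 and 0.0824 ± 0.0305 TPM (SD, n = 3), 2.99-fold (exact permutation p = 0.1). Hoxb3 went the other way, with 0.187 ± 0.102 and 0.366 ± 0.051 TPM (SD, n = 3; exact permutation p = 0.1). Hoxb2 had an exact permutation p of 0.4. In Hoxa2, Hoxb4 and Hoxb3, 3 of the 15 detected, the labels did not overlap, 2 higher and 1 lower in the mutant label. Of all 17605 genes above 0 in any library, 2.68% were higher in this way and 8.59% lower, 11.3% in all. Of 1459 genes above 0 in 5 or 6 libraries and with a mean of 0.1 to 0.5 TPM, 3.56% were higher and 7.06% lower, 10.6% in all. That class held 5 of the 15 detected Hox genes, with the 3 among them, a share that was not tested. The 3 genes went in both directions. Because Msx1 contradicts the labels of litters 2 and 3, these are differences between labels and not between Msx1 doses.

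The authors' deposited table, whose sample groups are not named in it, called no Hox gene. Of its 14572 genes with an adjusted p, 14 (0.0961%) were past 0.05, and only Hoxa2 and Hoxb3 of the Hox genes had an adjusted p at all. The 15 detected members had an unadjusted p, and 0 of them were under 0.05, as against 1.85% of all 17605 genes with one. The authors' deposited table puts Msx1 at -5.19 (log2 fold change), a size that the labels as deposited do not give, since both labels hold libraries with high and with low Msx1. The table's groups are therefore not those of the labels, and its values are not a second measurement of the label differences above. A positive value means higher where Msx1 was lower. Hoxa2 was at -0.03 ± 1.67 and Hoxb3 at 0.94 ± 1.44 in the authors' deposited table (log2 fold change and its SE). The smallest p-value of the family in the authors' deposited table was that of Hoxb2, 0.298, at a log2 fold change of -2.35 ± 2.26 (SE).

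Lists of genes of other tissues were read beside the Hox levels. Hindbrain and cranial motor neuron markers reached 1 TPM in 4 of 14 cases in each library (among them Isl1, Gbx2 and Sox2, which other tissues of the arch also express), and summed to 15.1 to 20.2 TPM in the mutant label and 18.5 to 23.8 TPM in the control label. Of its members 5 were at 0 in every library, Pax8, En1, Sox1 and Neurog1 among them. Egr2, which marks rhombomeres 3 and 5, did not exceed 0.635 TPM and Phox2a 0.435 TPM. Spinal cord and trunk neural tube markers reached 1 TPM in 0 to 1 of 8 cases, and that gene was Foxa2, also a gene of endoderm. Pax6 and Nkx6-1 were at 0. The part of such tissue in the Hox values was not tested, and the series holds no library of the second arch or hindbrain against which a share could be set.

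Markers of mesoderm and endoderm from behind the jaw were read in the same way. Of 9 somite and trunk markers, 2 to 4 reached 1 TPM per library, with sums of 9.41 to 12.7 TPM in the mutant and 10.2 to 12.9 TPM in the control label, and Uncx and Ripply2 were at 0. Of 11 heart markers 2 to 4 reached 1 TPM per library, with sums of 9.33 to 13.7 and 13.5 to 20.7 TPM, and Myl2 was at 0. The highest heart marker in every library was Isl1, at a mean of 8.43 TPM, which other tissues of the arch also express. Isl1 was 1 of 4 heart markers that reached 1 TPM in at least 1 library. The others were Myl7 at 0.705 to 5.82 TPM, Tnni3 at 0.308 to 3.32 TPM and Tnnt2 at 0 to 1.31 TPM. Limb and lateral plate markers reached 1 TPM in 5 to 6 of 9 cases. They summed to 70.3 to 103 and 69.8 to 94.4 TPM, mostly from Osr1, which jaw mesenchyme also expresses. Tbx4 was at 2.42 to 3.48 TPM and Fgf8 at 3.58 to 9.09 TPM, while Tbx5 did not exceed 0.0959 TPM. Pharyngeal endoderm and pouch markers reached 1 TPM in 6 to 8 of 11 cases. They summed to 33.1 to 35.6 TPM in the mutant label and 38.7 to 41.5 TPM in the control label. Epcam, also an epithelial marker, made up 16.8 to 22.2 TPM of this per library. Pax9 was at 3.61 to 4.66 TPM and Foxe1 at 3.57 to 4.75 TPM, while the parathyroid gene Gcm2 was at 0. Limma called no member of these lists between the labels, nor any of the 12152 genes tested. Its fit held 3 of the 9 somite, 3 of the 11 heart, 6 of the 9 limb and 8 of the 11 endoderm markers.

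Most neighbours of the near-silent clusters were expressed. The 3 nearest listed protein-coding genes on each side of each cluster, leaving out Evx1 and Evx2, gave 24 genes at 28.9 to 910.4 kb from the nearest Hox gene. Of these, 19 were at 1 TPM or more in all 6 libraries, as were 11034 of all 21827 listed genes. The median of the mean levels of the 24 neighbours was 26.3 TPM. On chromosome 6 the Hoxa cluster lies between Skap2, at a mean of 2.46 TPM, and Hibadh, a valine breakdown enzyme gene, at 17.6 TPM. On chromosome 2 the Hoxd cluster (74668310 to 74765142) lies between Lnpk, at 10.6 TPM, and Mtx2, at 11.1 TPM and only 60.7 kb away. On chromosome 15 the Hoxc cluster (102921103 to 103036852) has Calcoco1, at 25.2 TPM, and Smug1, a uracil-DNA glycosylase gene, at 3.46 TPM. The Hoxb cluster on chromosome 11 (96194316 to 96368256) differed, since its nearest neighbours Ttll6, Calcoco2 and Skap1 averaged 0.0136, 0 and 0 TPM. Farther out, Atp5g1, a gene for a subunit of ATP synthase, was at 701 TPM and Snx11 at 3.87 TPM.

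**Figure D4:**
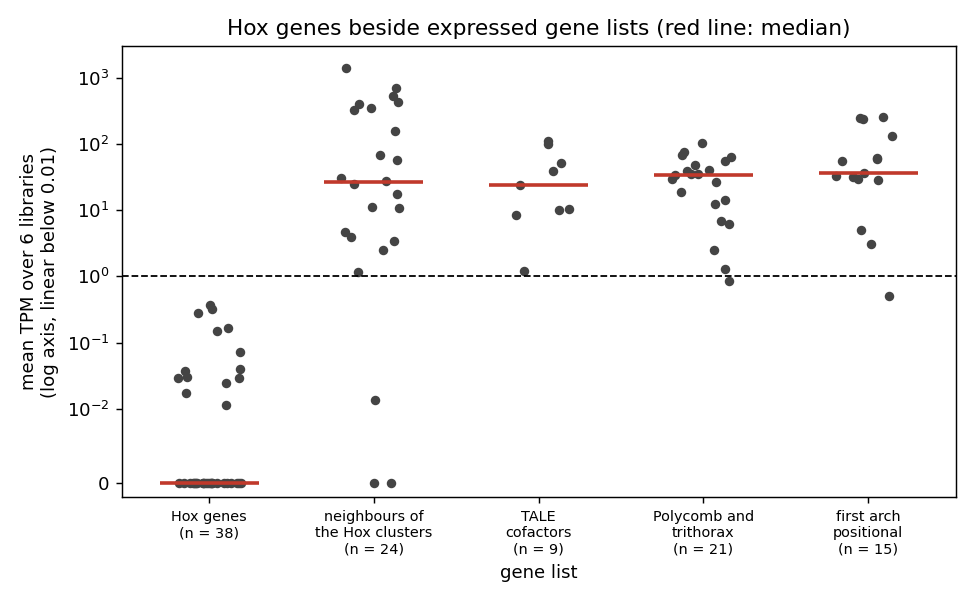
Mean TPM over the 6 libraries (log axis, linear below 0.01, dashed line at 1 TPM) of 38 Hox genes beside neighbours of the clusters, TALE cofactors, Polycomb and trithorax genes, and positional genes of the first arch; red lines are medians. All Hox genes shown lie under the dashed line, while list medians run from 24.2 to 36.8 TPM.

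Genes that specify position in the jaw without Hox input were high. Of 15 positional genes of the first arch, 14 were at 1 TPM or more in all 6 libraries, against 11034 of all 21827 listed genes. The list summed to 1106 to 1333 TPM per library. Barx1, Hand2, Dlx5 and Pitx1, homeobox or bHLH genes of the lower jaw, averaged 257, 242, 236 and 133 TPM. The exception was Otx2, at a mean of 0.501 TPM, a gene of forebrain, midbrain and the crest they give rise to. Limma called 0 of 14 tested members.

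The partners of Hox proteins were expressed at far higher levels than the Hox genes. TALE homeodomain proteins of the Pbx, Meis and Pknox families bind DNA together with Hox proteins and also act without them. Of 9 such genes, 8 were at 1 TPM or more in every library, against 11034 of all 21827 listed genes. Meis2 was at 110.4 TPM on average. Limma called none of the 9, with a median log2 difference of -0.12 against -0.06 over all 12152 genes tested. Pbx4, the faintest, was at 1.84, 1.60 and 2.65 TPM in the libraries labelled mutant and at 0, 0.546 and 0.576 TPM in those labelled control. Its log2 difference of 1.16 ± 0.25 (SE) did not pass (limma adjusted p = 0.669), and the labels did not overlap. Meis2 was at -0.29 ± 0.10 (SE; limma adjusted p = 0.686).

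Regulators that keep Hox clusters off or on were nearly all expressed. Polycomb proteins place and read repressive histone marks on Hox clusters in the anterior body, and trithorax proteins oppose them. Of 21 genes of both kinds, 20 were at 1 TPM or more in all libraries, against 11034 of all 21827 listed genes. Ezh2, the H3K27 methyltransferase gene, was at 102.6 TPM and Kmt2a, the trithorax gene that maintains Hox expression, at 33.9 TPM. Limma called 0 of 20 tested, with a median log2 difference of -0.13. Among genes that act upstream, the Cdx genes, which drive trunk Hox expression, were absent or nearly so, with Cdx2 and Cdx4 at 0 and Cdx1 at no more than 0.203 TPM. The retinoic acid receptor genes Rarg and Rara averaged 62.0 and 40.0 TPM, Aldh1a2, which makes retinoic acid, 6.60 TPM, and Cyp26b1, which degrades it, 9.28 TPM. Limma called 0 of the 8 tested upstream genes (median log2 difference -0.20).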

How the data were processed

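RNA of the distal mandible was measured in 6 libraries, 3 per label. Per the file headers the authors deposited 1 TPM value per gene and library, and per the submitters' processing notes Salmon 1.5.2, DESeq2 and mm10 were used. No source used here gives their settings or annotation. A comparison table deposited by the authors holds, per the file headers, a base mean (a signal), a log2 fold change with its standard error, a Wald score, and p-values with and without adjustment. TPM keep no depth, so precision rests on the spread between embryos.

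Hox genes were found by symbol, and all 39 matched GENCODE M21 (GRCm38) by Ensembl identifier. Salmon divides reads among overlapping transcripts, so values of overlapping Hox gene models are uncertain. Limma 3.58.1 in R 4.3.3 (variance trend, robust) compared the labels over the whole table on log2(TPM + 1), with Benjamini-Hochberg adjustment, and was tested on simulated data. Adding 1 shrinks the log2 difference of genes as low as these. SciPy 1.17.1 gave the exact permutation tests. The design text states that the embryos of a litter number shared a litter, so litter pairs the samples. Correlations of littermates' deviations from their label means were -0.05, -0.03 and -0.03.

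The naming rule gave Hox genes by value only where they reached 1 TPM, and none did. The detected Hox genes are given by value all the same, a choice made after their values were seen. Other genes named were members of context and marker lists with the highest means or smallest p, and defining markers. Members and lists were chosen with earlier results of these data known. Noncoding RNAs of the clusters were not analysed here. Neighbour genes and promoter windows were taken after the levels were seen. Alternatives were other pseudocounts, filters, scalings, a litter block, other TPM thresholds and leaving out each library. Values of some genes are not reported here.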

Additional observations from a re-analysis of the deposited data

How the results depend on the processing

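Limma's counts of 0 genes higher, 0 lower and 0 Hox genes held with a pseudocount of 0.1 TPM, without the filter, with a mean of at least 5 TPM, with median-of-ratios scaling and with the replicate block of litter (0 higher, 0 lower, 0 Hox). With each library left out in turn, 0 to 1 genes were higher and 0 to 1 lower, with 0 Hox genes. The 1 higher was Gm5244, when litter 1 lost its control-labelled library, and the 1 lower was Rpl29, when litter 1 lost its mutant-labelled one. Of these fits only the one without the filter held Hox genes, 15 of them, so in the others the 0 Hox genes was fixed in advance. Because no Hox gene passed the filter, no log2 difference could be followed across filtered fits. The count of Hox genes at 1 TPM, 0 in each library, is necessarily 0 at 2 TPM as well. At 0.5 TPM it became 1 in all 3 libraries labelled mutant and 1 in the litter 2 control label, with 0 in the others. With TPM rescaled to a fixed total over the listed genes, it became 1 in the library labelled control from litter 2 and stayed 0 in the others. In the libraries labelled mutant from litters 1, 2 and 3 the summed Hox TPM became 2.43, 2.47 and 2.67 when rescaled in this way, and 1.10, 1.36 and 1.36 without Hoxa2. In those labelled control the rescaled sums were 1.49, 3.88 and 1.20 TPM. The 0 Hox genes of the authors' table stayed 0 at an adjusted p of 0.1.

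The following alternatives were chosen after the data were seen. Genes at 0 in every library numbered 24 to 25 over the left-out libraries and 30 in litter 1, whose labels Msx1 follows. With fewer libraries this count can only stay or rise. The 3 genes with labels that do not overlap were the same 3 under both scalings. Leaving out a library cannot make such labels overlap, so there the count could only stay or rise, and it was 3 to 5. These genes numbered 5, with Hoxb2 and Hoxc9 added, without the library labelled mutant from litter 1. The differences of Hoxa2, Hoxb2, Hoxb3 and Hoxb4 between label means kept their sign in all 32 alternatives run. For Hoxa2, Hoxb3 and Hoxb4, whose labels do not overlap, leaving out a library could not have reversed the sign. Depth limits every Hox value, since the family rests on 132 scaled counts.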

Other observations

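Among other homeobox genes related to the Hox clusters, the ParaHox genes Gsx1, Gsx2 and Pdx1 were at 0 in every library, as was Evx2, next to Hoxd13. Evx1, next to Hoxa13, was at 0 in the 3 libraries labelled mutant and at 1.56, 0.264 and 0.0657 TPM in those labelled control from litters 1, 2 and 3. It thus exceeded every Hox gene there in litter 1, and it did not pass the filter of the main limma fit. The mesodermal genes Meox1 and Meox2 averaged 1.25 and 0.909 TPM, and limma's adjusted p between the labels was 0.743 and 0.799.

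The libraries also held blood, vessel and epithelial transcripts at far higher levels than Hox. Red blood cell markers summed to 7866 to 22592 TPM in the mutant label and 6898 to 9745 TPM in the control label, with the highest sum in the library labelled mutant from litter 1. Endothelial markers summed to 118.7 to 136 and 119.8 to 122 TPM, and epithelial markers to 169 to 178 and 178 to 193 TPM. Muscle progenitor markers summed to 20.9 to 24.4 and 19.0 to 22.8 TPM, neuronal markers to 9.82 to 11.7 and 9.29 to 12.8 TPM, glial markers to 4.18 to 5.61 and 4.67 to 6.34 TPM, and macrophage markers to 13.3 to 19.4 and 15.4 to 21.2 TPM. Limma called no member of these lists, nor any of the 12152 genes tested. Its fit held all blood, endothelial and epithelial markers. It held 4 of 9 muscle, 4 of 10 neuronal, 2 of 6 glial and 5 of 9 macrophage markers. The part of these tissues in the Hox values was not tested.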
